A study of Mus musculus with 13 samples.

Results

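The miRNAs described here are 8 mature miRNAs that are abundant in lymphocytes: both arms of miR-150 (mmu-miR-150-5p and mmu-miR-150-3p), both arms of miR-342 (mmu-miR-342-3p and mmu-miR-342-5p) and the 5p arms of the miR-181 family (mmu-miR-181a-5p, mmu-miR-181b-5p, mmu-miR-181c-5p and mmu-miR-181d-5p). They were taken by name from a table of small RNA-seq counts in plasma, in which they are 8 of 1907 mature miRNAs, of which 1203 had a count in some library. All 8 passed the filter on low counts that left 368 miRNAs for testing. The study asked how plasma miRNAs differ between dystrophic and healthy mice and whether Givinostat, an inhibitor of histone deacetylases, alters them. Plasma came from 13 mice, 1 library each: 3 mdx mice given Givinostat (animals 31, 34 and 35), 4 mdx mice given vehicle (40, 41, 42 and 43), 3 untreated mdx mice (naive mdx; 36, 37 and 39) and 3 untreated wild-type mice (naive wt; 86, 89 and 95). The mdx mouse (C57BL10ScSn-Dmdmdx/J) carries a mutation of the dystrophin gene and models Duchenne muscular dystrophy. The wild-type mice were C57BL/10J, and this is the strain label of the mdx samples too. The mice were males, 7 to 8 weeks old at purchase. Givinostat was given by gavage at 37.5 mg/kg in a vehicle of 0.5% methylcellulose, on 5 days per week for 15 weeks, and the vehicle mice received the methylcellulose alone on the same schedule. Neither naive group was gavaged. The plasma of all 4 groups was from the same time point, after the 15 weeks of treatment. Small RNA libraries do not measure the dystrophin transcript, so the genotype was not checked in these data.

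A miRNA is cut from a hairpin precursor as a pair of arms, 5p and 3p, and the arm that enters an Argonaute protein represses transcripts that match its seed, the bases near its 5′ end. miR-150 is abundant in mature B, T and NK lymphocytes, where it represses the transcription factor Myb. miR-342 lies in an intron of Evl, a regulator of actin, and is found in lymphocytes and other blood-forming cells. miR-181a raises the sensitivity of developing T cells to antigen, but the miR-181 family is also expressed in brain, vessel wall and muscle, so in plasma it is not a marker of lymphocytes alone. In plasma, fewer cells of a type and less RNA released per cell cannot be told apart.

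The mature sequences show which of the 8 miRNAs a read can tell apart, and which share a seed (bases 2 to 8, in capitals). RefSeq's annotation of GRCm38.p6 gave a sequence for 7 of the 8, written 5′ to 3′.
mmu-miR-150-3p: cUGGUACAggccugggggauag
mmu-miR-342-3p: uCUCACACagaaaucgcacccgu
mmu-miR-342-5p: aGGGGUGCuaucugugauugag
mmu-miR-181a-5p: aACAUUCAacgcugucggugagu
mmu-miR-181b-5p: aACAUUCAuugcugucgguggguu
mmu-miR-181c-5p: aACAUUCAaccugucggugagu
mmu-miR-181d-5p: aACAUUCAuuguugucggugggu
The 4 miR-181 5p arms had 1 seed in common, and the other arms each had a seed of their own. miR-181a-5p and miR-181c-5p were 1 edit apart over their whole length, miR-181b-5p and miR-181d-5p were 2 apart, and miR-181a-5p and miR-181b-5p were 4 apart. Reads of up to 25 nucleotides were mapped without mismatch, and both of the closest pairs differ at an inner base. A read that spans this base matches only 1 miRNA of its pair. The table sums isomiRs, and how they were assigned was not checked.

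miR-181a-5p and miR-181b-5p each come from 2 hairpins on different chromosomes. Mir181a-1 (chr1:137966455-137966541) and Mir181b-1 (chr1:137966639-137966718) lie on the plus strand, 97 bases apart, in an exon of the long noncoding RNA A430106G13Rik (GRCm38, GENCODE M21). Mir181a-2 (chr2:38852735-38852810) and Mir181b-2 (chr2:38853830-38853918), 1019 bases apart, lie opposite an intron of Nr6a1. Mir181c (chr8:84178873-84178961) and Mir181d (chr8:84178716-84178787) are 85 bases apart on the minus strand in an intron of Nanos3. Mir342 (chr12:108658620-108658718) lies in an intron of Evl on the same strand, and Mir150 (chr7:45121757-45121821) overlaps no other annotated gene. The hairpins of miR-181a are shown because their 5p arms are the same and their 3p arms are not, with both arms in capitals.
Mir181a-1: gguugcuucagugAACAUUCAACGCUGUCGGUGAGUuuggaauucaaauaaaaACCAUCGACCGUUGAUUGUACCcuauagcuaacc
Mir181a-2: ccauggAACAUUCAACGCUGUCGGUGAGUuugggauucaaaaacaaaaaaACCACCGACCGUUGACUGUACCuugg
A read of miR-181a-5p therefore cannot be assigned to either locus, while the 3p arms, miR-181a-1-3p and miR-181a-2-3p, can be told apart.

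The libraries held 1167161 to 2899315 counts, and the 8 miRNAs took 0.335% to 1.02% of them (median 0.541%). Levels are given as CPM, counts per 1000000 of the library total scaled by TMM, edgeR's correction for differences in composition. A floor of 3 counts corresponded to 1.03 to 2.57 CPM by library total. That floor covers counting error only, while the 95% intervals of fold changes come from edgeR's fit over mice and include the spread between them. Composition differed strongly with genotype: the liver miRNA miR-122-5p took 1.37% to 16.1% of counts in the 10 mdx libraries and 37.6% to 64.6% in the 3 naive wt libraries, and a list of 7 muscle miRNAs took 28.3% to 46.7% in mdx mice and 0.707% to 2.09% in naive wt mice. Haemolysis is commonly gauged by setting the red cell miRNA miR-451a against miR-23a-3p, and this log2 ratio was -2.68 to -0.69 in mdx mice and -0.11 to 0.11 in naive wt mice. Both of its terms differed with genotype: over the mdx groups miR-23a-3p was higher by 0.90 (SE 0.19, adjusted p = 0.00094) and miR-451a fell by 0.80 (SE 0.18, adjusted p = 0.0018) on the log2 scale. Its part in the results below was not tested beyond adding it to the model as a covariate, and since it separated mdx from naive wt mice completely, the ratio and the genotype could hardly be told apart. No pair of libraries within a group was a copy.

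Among the 8 miRNAs, miR-181a-5p (1689.5 to 2600.4 CPM) and miR-150-5p (613 to 3769 CPM) had the most counts, and together with miR-342-3p and miR-181b-5p they held most of the members' reads in every library. The scarcest of the 8 were miR-150-3p, miR-342-5p and miR-181c-5p: miR-150-3p ranged between 7.78 and 52.5 CPM, miR-342-5p between 11.3 and 54.6 CPM and miR-181c-5p between 15.4 and 41.2 CPM. The lowest count of any of the 8 in any library was 11, for miR-150-3p in naive mdx mouse 37. From the highest to the lowest mouse, miR-150-5p varied 6.15-fold, miR-150-3p 6.74-fold, miR-342-5p 4.82-fold and miR-342-3p 2.95-fold. The miR-181 arms varied 1.54-fold (miR-181a-5p), 2.02-fold (miR-181d-5p), 2.41-fold (miR-181b-5p) and 2.68-fold (miR-181c-5p).

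**Figure D1:**
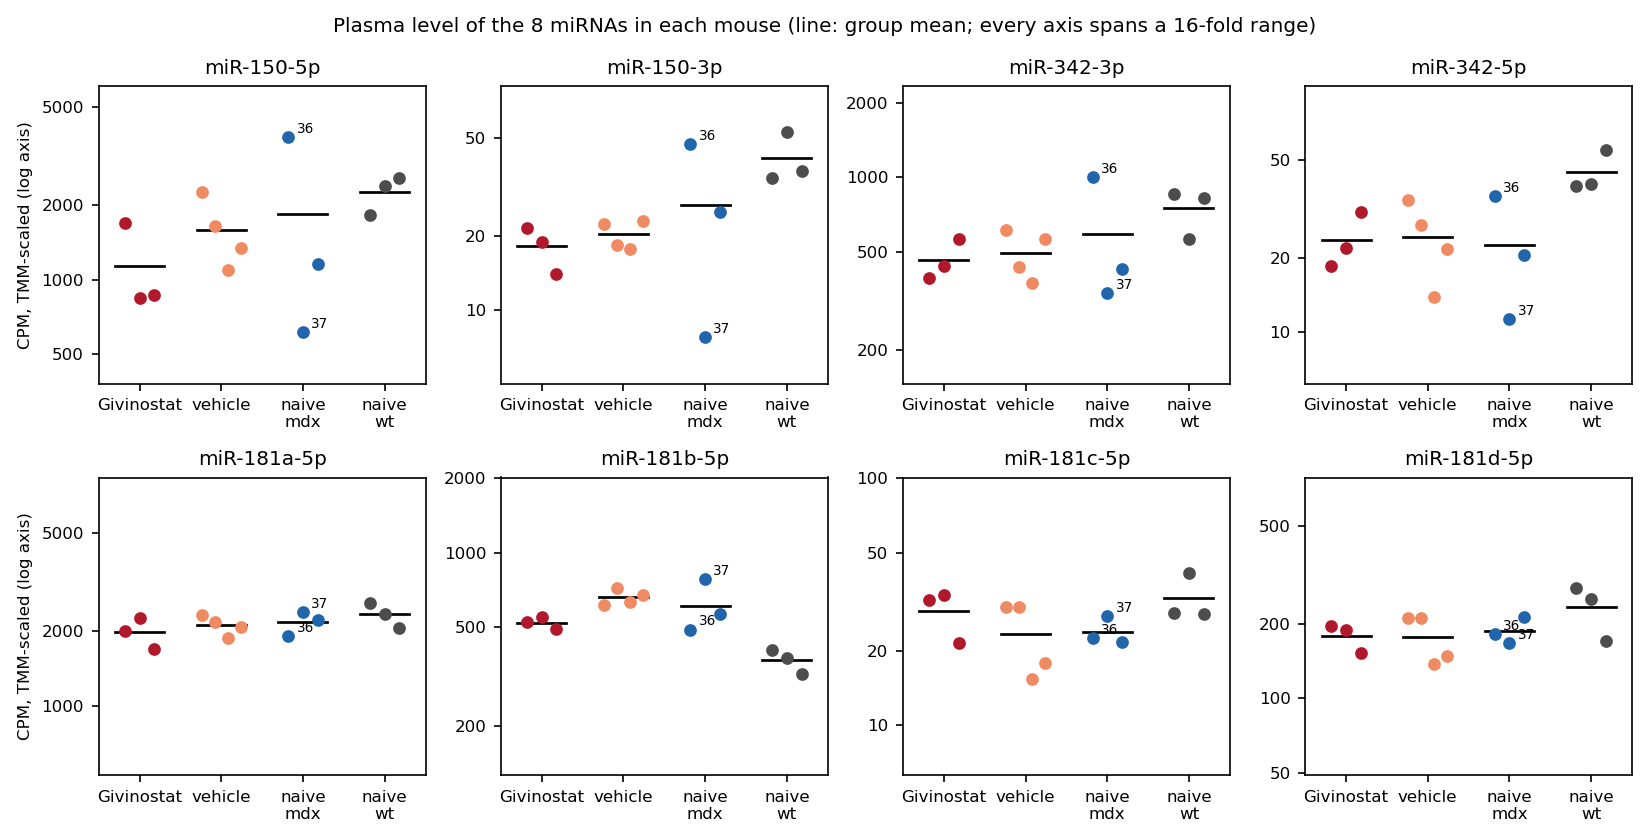
Level of each of the 8 miRNAs in the plasma of each mouse (CPM scaled by TMM, log axis; 1 point per mouse, line at the group mean), with groups ordered Givinostat, vehicle, naive mdx and naive wt. Naive mdx mice 36 and 37 are labelled: they lie at the top and the bottom of the naive mdx group for both arms of miR-150 and miR-342, between 613 and 3769 CPM for miR-150-5p, while miR-181b-5p is higher in each of the 10 mdx mice than in any naive wt mouse.

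miR-181b-5p was the only 1 of the 8 called higher in mdx than in naive wt mice. It measured 523, 548 and 493 CPM in the Givinostat mice, 615, 722, 629 and 673 CPM in vehicle animals and 489, 784 and 563 CPM in the naive mdx mice, against 403, 375 and 325 CPM in the naive wt mice. Each of the 10 mdx mice was above each of the 3 naive wt mice, and for 36.4% of all tested miRNAs these groups did not overlap in either direction. In naive mdx against naive wt mice the edgeR log2 fold change was 0.73 (SE 0.22, 95% interval 0.26 to 1.21, adjusted p = 0.014), a 1.66-fold higher level. Over the 3 mdx groups against naive wt it was 0.69 (SE 0.19, 95% interval 0.30 to 1.09, adjusted p = 0.006). Vehicle mice differed from naive wt mice by 0.84 (SE 0.21, adjusted p = 0.0041) and Givinostat mice by 0.50 (SE 0.22, adjusted p = 0.092), and both comparisons use the same 3 naive wt mice. The call over the mdx groups held with any 1 mouse left out (adjusted p 0.0012 to 0.033), and was lost with the red cell ratio as a covariate (log2 fold change 0.33, adjusted p = 0.97). The call in naive mdx against naive wt was lost without naive mdx mouse 37 (0.53, adjusted p = 0.064) or naive wt mouse 95 (0.68, adjusted p = 0.052), with upper-quartile scaling (0.51, adjusted p = 0.071), with no filter on low counts (0.71, adjusted p = 0.112), with the compared groups fitted alone (0.72, adjusted p = 0.0995) and with the red cell covariate (0.26, adjusted p = 0.992). It was made under 10 of 16 alternatives.

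miR-181a-5p, which shares both of its gene clusters with miR-181b-5p, was not called in any comparison. It measured 2007, 2263 and 1689.5 CPM in the Givinostat mice, 2332, 2181, 1885 and 2082 CPM in vehicle animals and 1918, 2400.2 and 2227 CPM in the naive mdx mice, against 2600.4, 2360.2 and 2059 CPM in the naive wt mice. All groups overlapped. In naive mdx against naive wt mice it had a log2 fold change of -0.10 (SE 0.21, 95% interval -0.54 to 0.34, adjusted p = 0.705) and -0.16 (SE 0.17, 95% interval -0.51 to 0.19, adjusted p = 0.415) over the mdx groups.

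The log2 ratio of miR-181a-5p to miR-181b-5p, taken from raw counts within a library and so free of scaling, compares both miRNAs in each mouse. It was 1.94, 2.04 and 1.78 in the Givinostat mice, 1.92, 1.60, 1.58 and 1.63 in vehicle animals and 1.97, 1.61 and 1.98 in the naive mdx mice, against 2.69, 2.65 and 2.66 in the naive wt mice. The naive wt mice lay close together and above every mdx mouse. The mean of the 10 mdx mice was 0.86 lower than that of the naive wt mice (1.81 against 2.67; exact permutation test, two-sided, p = 0.00699, the smallest p that 10 against 3 mice can give). Adjusted over the 28 tests of 7 ratios in 4 comparisons it was 0.196, so it did not pass. Naive mdx mice alone were 0.81 lower than naive wt mice (exact permutation p = 0.1, the smallest that 3 against 3 mice allow).

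The remaining arms of the miR-181 hairpins were looked at in the same libraries, and 1 of them showed a larger difference than any of the 8. The 3p arms of Mir181a-2 and Mir181a-1 differ within the seed, which is why both are printed.
mmu-miR-181a-2-3p: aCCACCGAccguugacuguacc
mmu-miR-181a-1-3p: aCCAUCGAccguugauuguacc
miR-181a-2-3p measured 208, 139 and 305 CPM in the Givinostat mice, 285, 136, 325 and 275 CPM in vehicle animals and 194, 180.3 and 119.5 CPM in the naive mdx mice, against 28.5, 36.7 and 26.8 CPM in the naive wt mice. The lowest mdx mouse was above the highest naive wt mouse by a wide margin. The log2 fold change was 2.42 (SE 0.36, a 5.35-fold higher level) in naive mdx, 3.06 (SE 0.36, 8.31-fold) in vehicle and 2.82 (SE 0.37, 7.07-fold) in Givinostat mice, each against naive wt, with adjusted p of 7.0e-05, 5.8e-06 and 1.9e-05. It stayed called over the mdx groups with any 1 mouse left out (log2 fold change 2.65 to 2.97), and was lost there with the red cell ratio as a covariate (adjusted p = 0.628). The calls in naive mdx and in vehicle against naive wt mice were lost with this covariate too (adjusted p = 0.992 and 0.743). Only in Givinostat against naive wt mice did miR-181a-2-3p stay called under all 16 alternatives, the covariate included (1.85, adjusted p = 0.035).

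Relative to the 5p arm of its own name, miR-181a-2-3p stood at 0.0538 to 0.181 counts per count of miR-181a-5p in mdx mice and 0.0111 to 0.0157 in naive wt mice. This ratio and the next were added after the values were seen and are given without a test. Against miR-181a-1-3p, from the other locus, the ratio was 23.2 to 77 in mdx mice and 3.74 to 13 in naive wt mice, although miR-181a-1-3p had only 3 to 17 counts per library. The other partner arms were too scarce to test: miR-181c-3p had 3 to 10 counts per library, and miR-181b-1-3p, miR-181b-2-3p and miR-181d-3p had 0 to 3. miR-181a-2-3p was the only partner arm among 6 with enough counts.

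**Figure D2:**
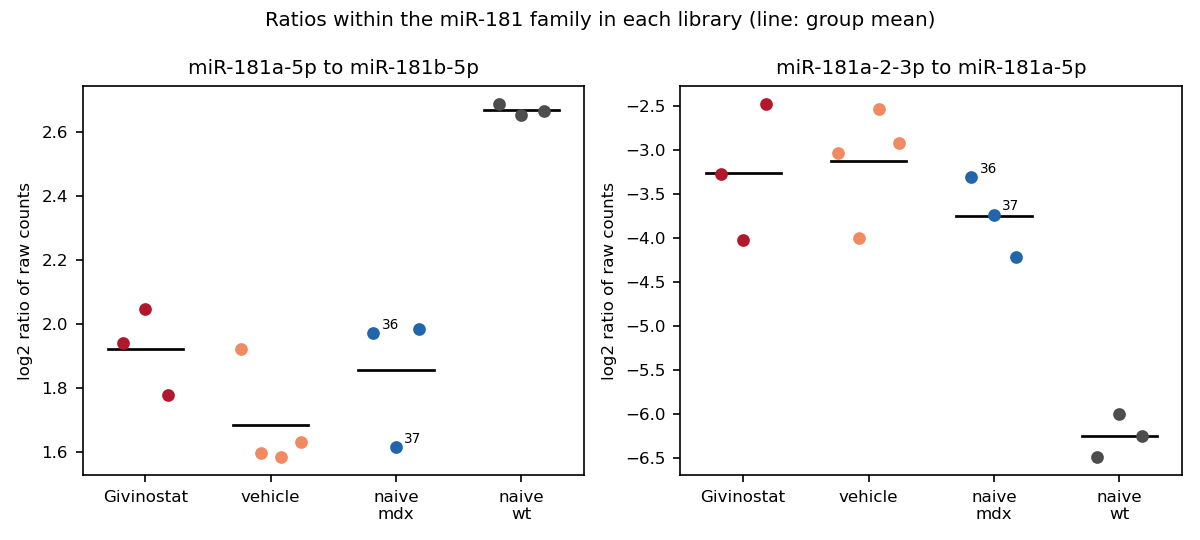
Log2 ratios of raw counts within each library for miR-181a-5p to miR-181b-5p (left) and miR-181a-2-3p to miR-181a-5p (right), 1 point per mouse with a line at the group mean. The 3 naive wt mice lie between 2.65 and 2.69 on the left, above all 10 mdx mice, and between -6.50 and -6.00 on the right, below all 10 mdx mice, which reach from -4.22 to -2.47.

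The other miR-181 arms gave no call. miR-181c-5p measured 32.2, 33.7 and 21.5 CPM in the Givinostat mice, 30.02, 30.2, 15.4 and 17.9 CPM in vehicle animals and 22.5, 27.6 and 21.7 CPM in the naive mdx mice, against 28.5, 41.2 and 28.2 CPM in the naive wt mice. The naive mdx mice were all below the naive wt mice, by a small margin, and the Givinostat and vehicle mice overlapped them. Its estimate in naive mdx against naive wt was -0.45 (SE 0.33, adjusted p = 0.268). miR-181d-5p ranged between 138 and 213 CPM in the 10 mdx mice and between 170.3 and 279 CPM in the naive wt mice, with log2 estimates of -0.32 (SE 0.26, adjusted p = 0.323) in naive mdx and -0.37 (SE 0.21, adjusted p = 0.141) over the mdx groups.

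The miR-150 and miR-342 arms tended to lower levels in mdx mice, and in naive mdx mice this depended on which mice were counted. miR-150-5p measured 1698, 842 and 867 CPM in the Givinostat mice, 2265, 1653, 1099 and 1341 CPM in vehicle animals and 3769, 613 and 1160.3 CPM in the naive mdx mice, against 1825, 2399.7 and 2591 CPM in the naive wt mice. Naive mdx mouse 36 had the highest and naive mdx mouse 37 the lowest level of all 13 mice, a 6.15-fold difference within 1 group. The group means were 1136 ± 487 (SD, n = 3) CPM in Givinostat, 1589.7 ± 504 (n = 4) in vehicle, 1847 ± 1686 (n = 3) in naive mdx and 2272 ± 399 (n = 3) in naive wt mice. The log2 fold change in naive mdx against naive wt was -0.30 (SE 0.48, 95% interval -1.32 to 0.73, adjusted p = 0.615), and over the mdx groups -0.60 (SE 0.38, 95% interval -1.40 to 0.19, adjusted p = 0.175).

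miR-150-3p, the scarcer arm of the same hairpin, measured 21.5, 18.8 and 14.1 CPM in the Givinostat mice, 22.3, 18.4, 17.7 and 23.1 CPM in vehicle animals and 46.98, 7.78 and 24.99 CPM in the naive mdx mice, against 34.2, 52.5 and 36.7 CPM in the naive wt mice. The 7 gavaged mice were all below the 3 naive wt mice, and of the naive mdx mice mouse 36 lay among them. For naive mdx mice the estimate was -0.62 (SE 0.43, adjusted p = 0.239). Over the mdx groups miR-150-3p was called lower, with a log2 fold change of -0.93 (SE 0.33, 95% interval -1.64 to -0.23, adjusted p = 0.028). That call was lost without naive wt mouse 89 (-0.72, adjusted p = 0.149) or 95 (-0.99, adjusted p = 0.058). The same held without vehicle mouse 40 (-0.80, adjusted p = 0.074), 41 (-0.78, adjusted p = 0.07) or 43 (-0.82, adjusted p = 0.063). Scaling by library totals (-0.72, adjusted p = 0.175) lost it too, and with the red cell ratio as a covariate the estimate turned (0.55, adjusted p = 0.989).

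miR-342-5p measured 18.5, 21.9 and 30.6 CPM in the Givinostat mice, 34.2, 27.2, 13.9 and 21.8 CPM in vehicle animals and 35.7, 11.3 and 20.6 CPM in the naive mdx mice, against 39.3, 40.1 and 54.6 CPM in the naive wt mice. All 10 mdx mice were below all 3 naive wt mice, mouse 36 by the smallest margin. The log2 fold change was -0.98 (SE 0.40, 95% interval -1.82 to -0.14, adjusted p = 0.055) in naive mdx against naive wt and -0.93 (SE 0.30, 95% interval -1.57 to -0.28, adjusted p = 0.018) over the mdx groups, where it was called lower. This call was lost without naive wt mouse 95 (-0.72, adjusted p = 0.111) and under scaling by library totals (-0.65, adjusted p = 0.164). It was also lost with the red cell ratio as a covariate (-0.33, adjusted p = 0.991).

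miR-342-3p, the abundant arm, measured 391, 439 and 566 CPM in the Givinostat mice, 611, 435, 372 and 564 CPM in vehicle animals and 1007, 342 and 425 CPM in the naive mdx mice, against 860.1, 565 and 829 CPM in the naive wt mice. Mouse 36 was again the highest of the 13 and mouse 37 the lowest. Its fold change on the log2 scale was -0.35 (SE 0.35, adjusted p = 0.413) in naive mdx and -0.55 (SE 0.27, 95% interval -1.12 to 0.03, adjusted p = 0.096) over the mdx groups. The log2 ratio of miR-342-3p to miR-342-5p averaged 4.44 in the mdx mice and 4.06 in the naive wt mice (exact permutation p = 0.105, adjusted p = 0.533), so a difference between the arms was not shown.

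Naive mdx mouse 36 pulled the naive mdx group towards naive wt mice for the miR-150 and miR-342 arms. Its miR-150-5p level was 3.25-fold, its miR-342-3p level 2.37-fold and its miR-150-3p level 1.88-fold that of the next naive mdx mouse. miR-150-5p made up 50.5% of the counts of the 8 miRNAs in mouse 36 and 14.1% in mouse 37. For the miR-181 arms mouse 36 ranked between 8 and 11 of 13. Mouse 36 had the fewest total counts of the 13 libraries, and its scaling factor was the largest (1.37). Without it, 5 of the 8 miRNAs were called in naive mdx against naive wt: miR-150-5p (log2 fold change -1.32, adjusted p = 0.013), miR-150-3p (-1.26, adjusted p = 0.025), miR-342-3p (-0.93, adjusted p = 0.019) and miR-342-5p (-1.43, adjusted p = 0.012) were lower and miR-181b-5p (0.90, adjusted p = 0.0037) was higher. With all mice, 26.9% of the 368 tested miRNAs were already called higher and 16.6% lower in this comparison. The share of all tested that was called without mouse 36 is not given here, so the 5 calls are not read as particular to the 8. Without mouse 37, none of the 8 was called, and the miR-150-5p estimate was 0.09. Over the mdx groups, miR-150-5p (-0.94, adjusted p = 0.0064) and miR-342-3p (-0.73, adjusted p = 0.0068) were called lower once mouse 36 was left out. The labels give no ground for leaving either mouse out, and whether mouse 36 differed in its cells, its blood draw or its library was not tested.

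**Figure D3:**
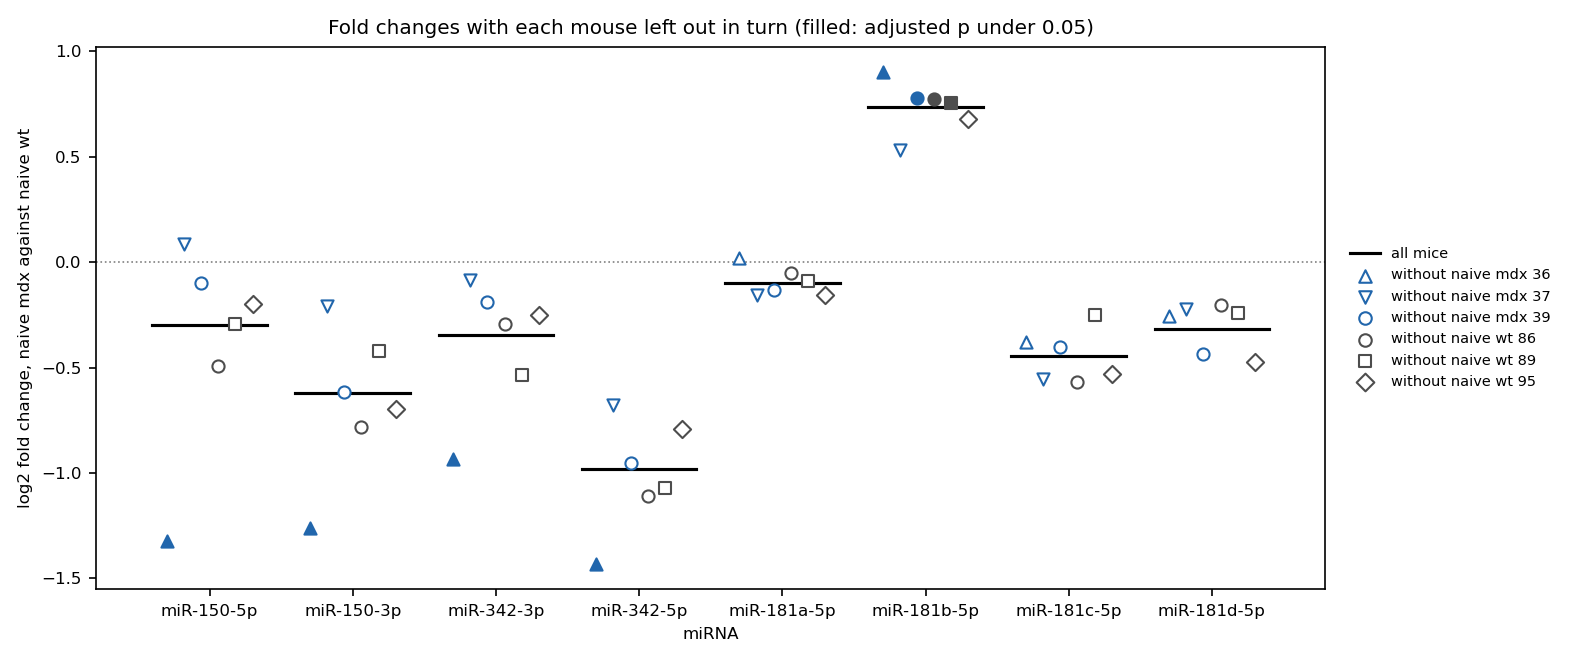
Log2 fold change of the 8 miRNAs in naive mdx against naive wt mice with all mice (black line) and with each mouse of the 2 groups left out in turn (symbols, filled where the adjusted p was under 0.05). Leaving out mouse 36 lowers miR-150-5p to -1.32, against -0.30 with all mice, and brings 5 of the 8 miRNAs under the threshold, whereas leaving out mouse 37 brings miR-150-5p to 0.09 and leaves none. With all mice, 26.9% of the 368 tested miRNAs were called higher and 16.6% lower.

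Counted together in naive mdx against naive wt mice, 1 of the 8 miRNAs was called higher and 0 lower, where 26.9% of the 368 tested miRNAs were called higher and 16.6% lower. The median log2 fold change of the 8 was -0.33, and that of all 368 was 0.04. For 3 of the 8 the groups did not overlap (miR-181b-5p higher, miR-181c-5p and miR-342-5p lower), against 57.6% of all tested. Over the mdx groups against naive wt, 1 of the 8 was called higher and 2 lower, beside 28.8% and 25.3% of all tested, and 2 of the 8 did not overlap, beside 36.4% of all tested. The median was -0.46, against -0.07 for all 368. The share of members called was thus not above the background. Under scaling by library totals the median of all 368 in naive mdx against naive wt moved by 0.39, and the estimates of miR-150-5p (0.19), miR-342-3p (0.17), miR-181a-5p (0.24) and miR-181d-5p (0.03) then stood above 0, with none of them called. miR-181b-5p was called by TMM and by library totals (1.05, adjusted p = 0.016) but not with upper-quartile scaling (0.51, adjusted p = 0.071).

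**Figure D4:**
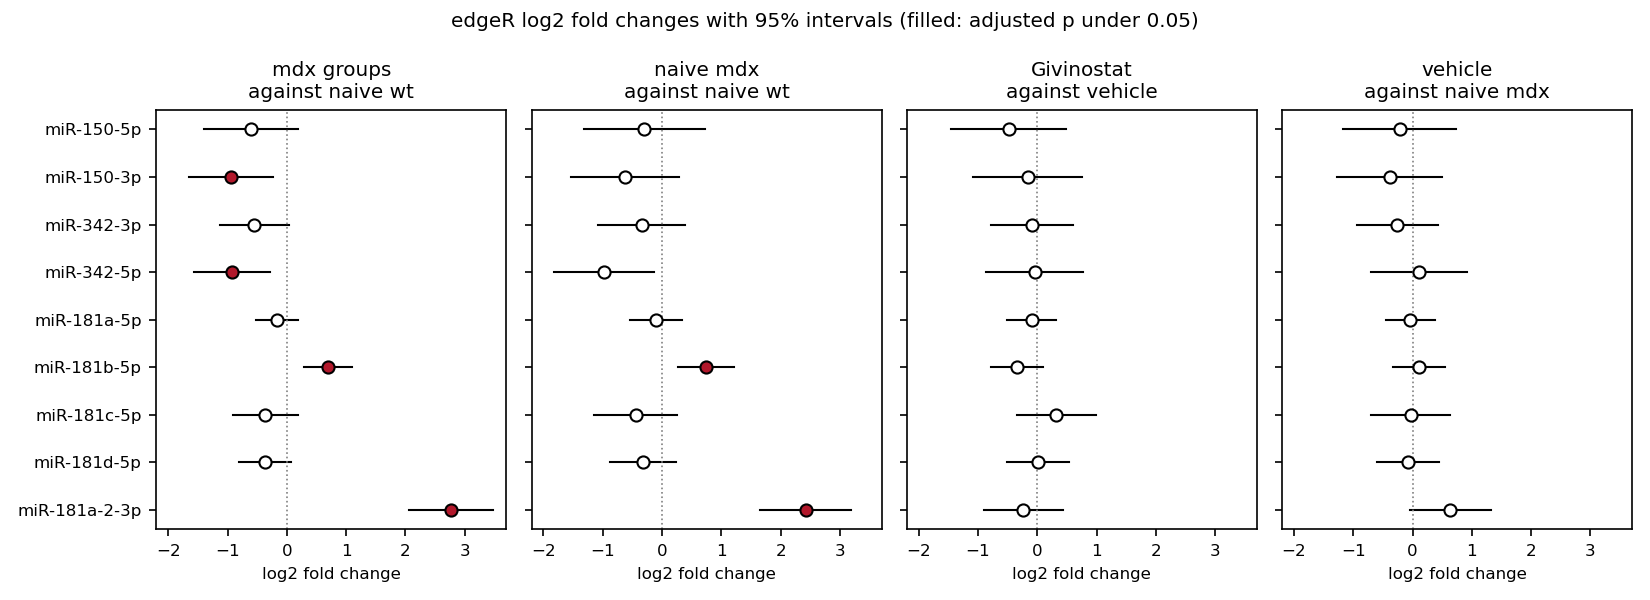
Log2 fold changes from edgeR with 95% intervals for the 8 miRNAs and miR-181a-2-3p in 4 comparisons; filled points passed an adjusted p of 0.05 over the 368 miRNAs tested. Over the mdx groups against naive wt, miR-150-3p and miR-342-5p were lower and miR-181b-5p and miR-181a-2-3p higher; in naive mdx mice miR-181b-5p and miR-181a-2-3p were higher; no point is filled for Givinostat against vehicle or vehicle against naive mdx.

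Givinostat gave no detectable change in any of the 8 miRNAs. In Givinostat against vehicle mice 0 of 8 were called by edgeR, by DESeq2 or by limma voom, and 0 of 8 had an unadjusted p under 0.05, where 0.272% of all tested miRNAs were called. The median log2 fold change of the 8 was -0.09, against -0.02 for all tested. For 1 of the 8 the groups did not overlap, as for 7.61% of all tested: miR-181b-5p was at 493 to 548 CPM in the Givinostat mice and 615 to 722 CPM in the vehicle mice, with a log2 fold change of -0.34 (SE 0.21, 95% interval -0.78 to 0.10, adjusted p = 0.71), and miR-150-5p had a log2 fold change of -0.49 (SE 0.46, 95% interval -1.45 to 0.48, adjusted p = 0.823). The estimates of the other 6 lay between -0.16 and 0.32. The intervals were widest for both miR-150 arms, with lower ends at -1.45 and -1.08, while that of miR-181a-5p ran between -0.51 and 0.32.

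Of the 7 within-library ratios, that of miR-150-5p to miR-223-3p, a miRNA of neutrophils and other myeloid cells, did not overlap between treated and vehicle mice, but the groups all but met. It was 2.78, 2.05 and 2.64 on the log2 scale in the Givinostat mice, against 3.43, 3.23, 2.78 and 3.27 in the vehicle mice, a difference in means of -0.69. The highest Givinostat mouse (2.7763) and the lowest vehicle mouse (2.7764) were practically tied, so this is not a clear separation. The exact permutation p was 0.0571, the smallest that 3 against 4 mice can give, and 0.533 after adjustment over the 28 ratio tests.

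No change was detected with the vehicle alone either. In vehicle against naive mdx mice 0 of 8 were called by edgeR, DESeq2 or limma voom and 0 had an unadjusted p under 0.05, and 0.0% of all tested were called. The log2 fold change of miR-150-5p was -0.22 (SE 0.45), and it was 0.83 without mouse 36 and -0.58 without mouse 37, none of them called. In Givinostat against naive mdx mice 0 of 8 were called by any of the 3 tools and 0 had an unadjusted p under 0.05, with 0.0% of all tested called. Against the same 3 naive wt mice, 1 of the 8 was called in vehicle mice (miR-181b-5p), beside 47.3% of all tested. In Givinostat mice 0 of the 8 were called by edgeR and limma voom and 1 by DESeq2, beside 34.2% of all tested by edgeR. There 3 of 8 had an unadjusted p under 0.05 in the edgeR test, as had 166 of all 368 tested, so the share of members was not above the background. In Givinostat mice miR-150-5p stood at 0.50 of the naive wt level (SE 0.49 on the log2 scale, adjusted p = 0.125), and the log2 estimate of miR-150-3p was -1.17 (SE 0.45, adjusted p = 0.053).

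Ordered by group mean, miR-150-5p, miR-150-3p, miR-342-3p and miR-181a-5p had their order in common: naive wt highest, then naive mdx, vehicle and Givinostat. For miR-342-5p the order was naive wt, vehicle, Givinostat, naive mdx. miR-181b-5p was ordered vehicle, naive mdx, Givinostat, naive wt. miR-181c-5p was ordered naive wt, Givinostat, naive mdx, vehicle, and miR-181d-5p naive wt, naive mdx, Givinostat, vehicle. In none of the 8 orders did the edgeR test call a difference between neighbouring groups.

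Across the 13 mice, the arms of miR-150 and miR-342 varied together. On log2 CPM, miR-150-3p had r = 0.865 with miR-150-5p (permutation p = 2.0e-04, adjusted p = 0.0014 over 7 pairs) and rho = 0.835 (permutation p = 6.6e-04), and r = 0.745 without mice 36 and 37, the farthest from the median. miR-342-5p had r = 0.746 (permutation p = 0.0037, adjusted p = 0.0086) and rho = 0.758 (permutation p = 0.00403), and r = 0.662 without them. miR-342-3p had r = 0.745 (permutation p = 0.00366, adjusted p = 0.0086) and rho = 0.709 (permutation p = 0.00874), and r = 0.537 without them, the weakest of these relations once both mice were left out. Taken as deviations from the group means, r was 0.849, 0.727 and 0.684 for the same 3 arms. Mice 36 and 37 had the largest deviations of miR-150-5p, and this r was not computed without them. Both miR-342 arms were highest in the vehicle and naive mdx mice with the most miR-150-5p. Among the Givinostat mice they ran the other way: mouse 31 had the most miR-150-5p (1698 CPM) and the least miR-342-3p (391 CPM) and miR-342-5p (18.5 CPM). Among the naive wt mice, mouse 86 had the least miR-150-5p (1825 CPM) and the most miR-342-3p (860.1 CPM). There miR-342-5p was highest in mouse 95 (54.6 CPM), which had the most miR-150-5p (2591 CPM). The relation was thus not shown within every group. For miR-181a-5p r was 0.03 (permutation p = 0.935), for miR-181c-5p 0.24 (permutation p = 0.436) and for miR-181d-5p 0.39 (permutation p = 0.182). miR-181b-5p ran against miR-150-5p, with r = -0.55 (permutation p = 0.0503, adjusted p = 0.088) and rho = -0.63 (permutation p = 0.0253, adjusted p = 0.0443), and r = -0.47 without mice 36 and 37. All values share 1 scaling factor per library.

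The tested miRNA outside the 8 whose levels were most like those of miR-150-5p was miR-204-5p (r = 0.899, rho = 0.901 over 13 mice, r = 0.854 without mice 36 and 37). It measured 474, 341 and 256 CPM in the Givinostat mice, 498, 422, 372 and 314 CPM in vehicle animals and 797, 252 and 304 CPM in the naive mdx mice, against 586, 911 and 583 CPM in the naive wt mice, and it too was high in mouse 36 and low in mouse 37. The next in likeness were miR-671-5p, miR-1981-3p, miR-433-3p and miR-18a-3p, with r between 0.753 and 0.780. For miR-181a-5p the most alike were miR-431-3p (r = 0.764), let-7i-5p (r = 0.679), miR-382-5p (r = 0.657), miR-210-3p (r = 0.656) and miR-200a-5p (r = 0.656). These 10 were picked for their likeness among all tested miRNAs outside the 8, so no p is given.

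**Figure D5:**
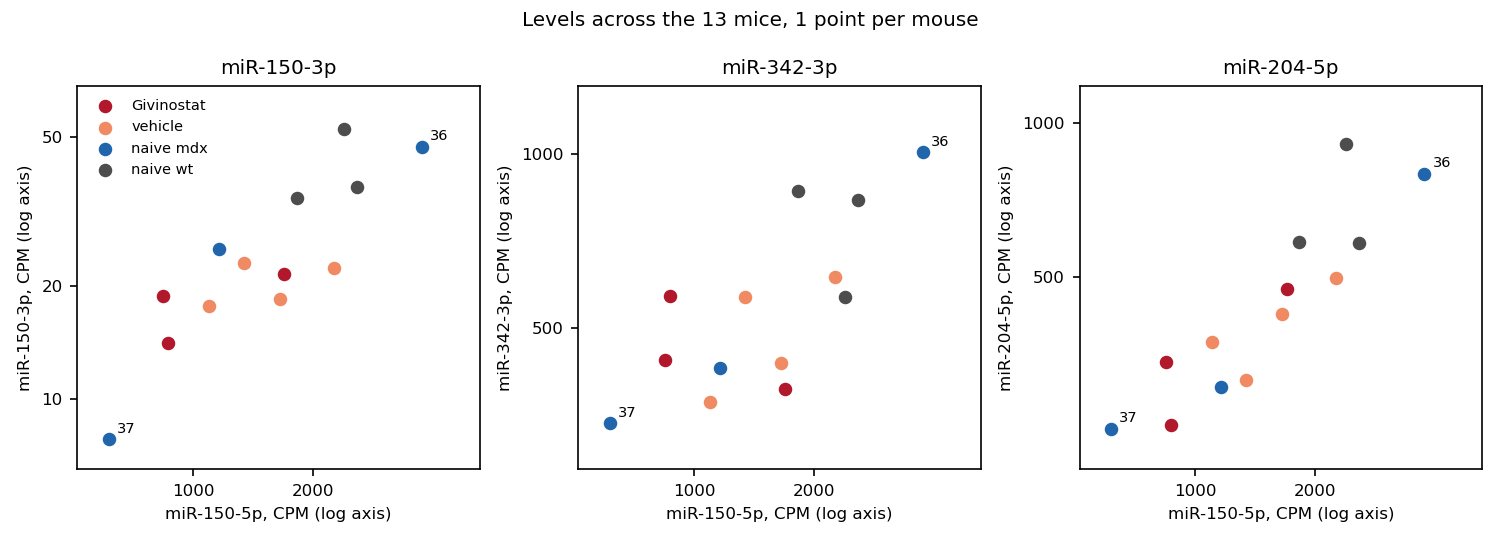
miR-150-3p, miR-342-3p and miR-204-5p plotted against miR-150-5p (CPM scaled by TMM, log axes), 1 point per mouse coloured by group, with naive mdx mice 36 and 37 labelled. All 3 rise with miR-150-5p, with r = 0.865, 0.745 and 0.899, and mice 36 and 37 lie at or near the ends of each cloud.

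Other leukocyte miRNAs give the setting of these values. Of 8 other miRNAs abundant or active in lymphocytes and leukocytes, 2 were lower and 0 higher in naive mdx against naive wt mice, and 5 were lower and 0 higher over the mdx groups. Of all tested miRNAs, 16.6% were lower and 26.9% higher in the first comparison, and 25.3% lower and 28.8% higher in the second. Among them miR-142a-3p, made throughout the blood-forming lineages, had a log2 estimate of -1.02 (SE 0.26, adjusted p = 0.0042) and miR-146a-5p, which restrains NF-kB signalling, -1.01 (SE 0.17, adjusted p = 0.00014) over the mdx groups, and for both no mdx mouse reached the naive wt range. miR-155-5p, induced in activated lymphocytes, had 0.34 (SE 0.26, adjusted p = 0.26). The summed level of these 8 other leukocyte miRNAs was 12108 to 18926 CPM in the mdx mice and 20146 to 23009.6 CPM in the naive wt mice. Of 4 myeloid miRNAs, 1 was higher (miR-147-3p, 0.92) and 2 were lower over the mdx groups, against the same 28.8% and 25.3% of all tested, while miR-223-3p was not called (-0.35, adjusted p = 0.213). miR-223-3p, too, was highest in mouse 36, at 412 CPM against 197 and 213 CPM in the other naive mdx mice.

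Red cell and platelet lists were measured beside them, since plasma can carry RNA from both. Of 5 red cell miRNAs, 2 were higher (both arms of miR-486a) and 3 lower (miR-451a, miR-144-3p and miR-144-5p) over the mdx groups, beside 28.8% and 25.3% of all tested. miR-144-3p was at 21.1 to 83.5 CPM in mdx mice and 117 to 165 CPM in naive wt mice, and miR-486a-5p at 860 to 6822 and 259 to 341 CPM. The summed level of the 5 mixes these directions: it was 4314 to 10329.9 CPM in mdx mice and 5653 to 7122 CPM in naive wt mice. Of 3 tested platelet and endothelial miRNAs none was called over the mdx groups by edgeR. Of these, 1 had an unadjusted p under 0.05, as had 227 of all 368 tested. Their sums overlapped (12341 to 19921 CPM in mdx mice, 13899 to 17521 CPM in naive wt mice). With the red cell ratio as a covariate, 0 of the 8 miRNAs was called in any comparison with naive wt mice, and miR-150-5p had a log2 fold change of 2.31 in naive mdx against naive wt. The same model called 1 of all tested miRNAs in that comparison, against 160 without the covariate.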

How the data were processed

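The authors isolated RNA from EDTA plasma, prepared small RNA libraries (NEBNext), trimmed, mapped to GRCm38 and counted reads per mature miRNA of miRBase release 21, summing isomiRs. Bowtie 1.0.0, cutadapt 1.4.2 and bcl2fastq 1.37.0 stand in the submitters' processing notes, and Trimmomatic in the paper. The deposited table used here holds raw counts, and no molecular identifiers were described. A second deposited table of normalized values was not used here. All columns matched a mouse, and groups came from the sample titles. miRNAs with enough counts (filterByExpr by group, minimum count 10) were tested with edgeR 4.0.16 in R 4.3.3 (quasi-likelihood, TMM, 1 mean per group over all 13 libraries), with Benjamini-Hochberg adjustment over 368 miRNAs and calls under 0.05. The mdx groups were contrasted as the mean of their 3 coefficients. DESeq2 1.42.0 and limma 3.58.1 (voom), other scalings and filters, the compared groups alone, a red cell covariate and leaving out each mouse were alternatives. Ratios used raw counts plus 0.5 and two-sided exact permutation tests over mice, and correlations 100000 permutations. Scripts were tested on simulated data. The named miRNAs were the 8, the other arms of their hairpins, up to 4 of each list by mean level, the 5 most alike to miR-150-5p and to miR-181a-5p and 4 reference miRNAs. The 8 miRNAs and the lists were chosen with earlier results of these data known.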

Additional observations from a re-analysis of the deposited data

Results flagged for a closer look

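In the vehicle mice, the log2 ratio of miR-181a-5p to miR-181b-5p was 1.92 in mouse 40, against 1.60, 1.58 and 1.63 in mice 41, 42 and 43. The gap from mouse 40 to the nearest other mouse was 0.859 of the whole range of the group, past Dixon's critical value for 4 samples. It was 1 of 16 such groups of values checked, of which chance alone singles out about 1 in 20. Mouse 40 stayed below all naive wt mice (2.65 to 2.69).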

How the results depend on the processing

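miR-181b-5p over the mdx groups kept its direction under all 23 alternatives tried and stayed called under all but the red cell covariate. Of the other alternatives than leaving out a mouse, 341 of the log2 fold changes kept their direction and side of the threshold, 29 turned, 12 lost and 8 gained a call, and with a mouse left out these were 277, 26, 8 and 6; no turned value was called. In naive mdx against naive wt, 1 of the 8 miRNAs was called, but 2 with library totals without the muscle and liver miRNAs, 2 with limma voom and 0 with the red cell ratio as a covariate. The count stayed at 1 with upper-quartile scaling, no filter on low counts and the compared groups fitted alone, but the called miRNA was then miR-342-5p (adjusted p = 0.021, 0.045 and 0.049 in that order) in place of miR-181b-5p. In mdx groups against naive wt, 3 of the 8 miRNAs were called, but 5 with upper-quartile scaling, 1 with scaling by library totals and 0 with the red cell ratio as a covariate. In vehicle against naive wt, 1 of the 8 miRNAs was called, but 4 with upper-quartile scaling, 3 with library totals without the muscle and liver miRNAs, 2 with limma voom, 3 with the compared groups fitted alone and 0 with the red cell ratio as a covariate. In Givinostat against naive wt, 0 of the 8 miRNAs were called, but 1 with upper-quartile scaling, 1 with library totals without the muscle and liver miRNAs, 1 with a filter on mean CPM, minimum 10, 1 with DESeq2 and 3 with the compared groups fitted alone. Leaving out each mouse in turn gave 0 to 5 called in naive mdx against naive wt and 1 to 5 called in mdx groups against naive wt. With all mice, the chosen model called 160 and 199 of all tested miRNAs in these comparisons. The sign of the log2 fold change in naive mdx against naive wt turned for miR-150-5p (0.19), miR-342-3p (0.17), miR-181a-5p (0.24) and miR-181d-5p (0.034) with scaling by library totals, for miR-150-5p (2.31), miR-150-3p (1.25), miR-181a-5p (0.17), miR-181c-5p (0.35) and miR-181d-5p (0.77) with the red cell ratio as a covariate. The sign of the log2 fold change in Givinostat against vehicle turned for miR-342-3p (0.031), miR-342-5p (0.073) and miR-181a-5p (0.013) with upper-quartile scaling, for miR-181d-5p (-0.012) with the compared groups fitted alone, for miR-181d-5p (-0.41) and miR-181a-2-3p (0.54) with the red cell ratio as a covariate. The sign of the log2 fold change in vehicle against naive mdx turned for miR-150-5p (0.14) with limma voom, for miR-342-5p (-0.16) and miR-181b-5p (-0.052) with scaling by library totals, for miR-181a-5p (0.0017) with RLE scaling, for miR-181a-5p (0.043) and miR-181c-5p (0.046) with no filter on low counts, for miR-181a-5p (4.82e-05) and miR-181c-5p (0.0013) with DESeq2. The sign of the log2 fold change in mdx groups against naive wt turned for miR-150-5p (1.44), miR-150-3p (0.55), miR-181a-5p (0.0497), miR-181c-5p (0.24) and miR-181d-5p (0.47) with the red cell ratio as a covariate, for miR-181a-5p (0.052) with scaling by library totals. With each mouse left out in turn, the log2 fold change in Givinostat against vehicle turned its sign for miR-342-3p (-0.32 to 0.0095), miR-342-5p (-0.32 to 0.11) and miR-181d-5p (-0.086 to 0.066). With each mouse left out in turn, the log2 fold change in naive mdx against naive wt turned its sign for miR-150-5p (-1.32 to 0.086) and miR-181a-5p (-0.16 to 0.018). With each mouse left out in turn, the log2 fold change in vehicle against naive mdx turned its sign for miR-150-5p (-0.58 to 0.83), miR-150-3p (-0.77 to 0.28), miR-342-3p (-0.48 to 0.37), miR-342-5p (-0.18 to 0.57), miR-181a-5p (-0.12 to 0.052), miR-181b-5p (-0.023 to 0.35), miR-181c-5p (-0.12 to 0.12) and miR-181d-5p (-0.14 to 0.068). Left-out mice likewise turned the difference in the log2 ratio of miR-150-5p to miR-342-3p in naive mdx against naive wt (-0.47 to 0.071), miR-150-5p to miR-342-3p in vehicle against naive mdx (-0.019 to 0.51), miR-150-5p to miR-342-3p in mdx groups against naive wt (-0.42 to 0.085), miR-150-5p to miR-181a-5p in naive mdx against naive wt (-1.40 to 0.069), miR-150-5p to miR-181a-5p in vehicle against naive mdx (-0.48 to 0.99), miR-150-5p to miR-150-3p in vehicle against naive mdx (-0.059 to 0.34), miR-342-3p to miR-342-5p in Givinostat against vehicle (-0.22 to 0.023), miR-150-5p to miR-142a-3p in naive mdx against naive wt (-0.43 to 0.68) and miR-150-5p to miR-142a-3p in vehicle against naive mdx (-0.093 to 1.02). Over all tested miRNAs, the covariate left 1 called in naive mdx, 10 in the mdx groups, 2 in vehicle and 22 in Givinostat mice, each against naive wt, where the chosen model called 160, 199, 174 and 126. In Givinostat against vehicle 1 was called, and 0 to 6 under the alternatives, and in Givinostat against naive mdx 0, and up to 11 with no filter. The cause of these changes was not tested. No paired analysis was possible because the groups share no animal numbers. With 3 or 4 mice per group, exact tests cannot go below 0.1 or 0.0571, and counts of 11 to 116 for miR-150-3p, miR-342-5p and miR-181c-5p limit their precision.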
